A study of Mus musculus with 6 samples.

Results

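GATOR1 and the sestrins form the arm of amino acid sensing that holds back mTORC1, and their 6 genes, Depdc5, Nprl2, Nprl3, Sesn1, Sesn2 and Sesn3, were followed in the mouse incisor after deletion of Fgfr1 in Gli1+ cells. They were taken by name from the 19060 genes of the deposited count table, and all 6 were present and passed the filter on low counts. Of these, Nprl3 was the one whose level was lower in all 3 mutant samples than in any control sample, a pattern seen for 16.3% of all genes tested. The levels of the other 5 genes overlapped between the groups.

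GATOR1 is a complex of DEPDC5, NPRL2 and NPRL3 on the lysosome, where it promotes GTP hydrolysis by RagA and RagB and so lowers mTORC1 activity when amino acids are scarce. SESN1 and SESN2 bind leucine. Without leucine they bind GATOR2, the complex that acts against GATOR1. SESN3 is a related protein, and sestrin transcription is known to respond to p53, FoxO factors, ATF4 and NRF2 under stress.

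RNA was sequenced from the proximal end of the incisor, which holds the mesenchymal stem cells of this continuously growing tooth together with ameloblast-lineage epithelium, odontoblasts, vessels and nerve. The 3 controls are labelled wild type, and the 3 mutants carried the floxed allele with the driver (Gli1CreER;Fgfr1fl/fl, labelled Gli1-Cre;Fgfr1fl/fl). The paper calls the RNA controls only control, and names Fgfr1fl/fl as the control of this cross in other experiments. All mice were 1 month old, and incisors were taken 1 week after tamoxifen, which controls also received. The comparison asks what loss of FGFR1 from Gli1+ cells does to gene expression around these stem cells. Tamoxifen is thus shared by both groups, while it is not known whether the floxed allele is. No control is given as carrying the driver alone. Recombination occurs only in cells in which Gli1 drives CreER, while the RNA came from the whole proximal end. In such bulk RNA, fewer cells of a type and less RNA per cell cannot be told apart. The labels do not say whether each sample was a separate mouse, so p-values measure only the spread between these samples.

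Total counts ranged from 31060222 to 32712448 in controls and from 5276557 to 11819576 in mutants, so depth and genotype cannot be told apart. Genes listed at 0 made up 2.18 to 2.44% of the table in controls and 14.5 to 27.3% in mutants. Fgfr1, the targeted gene, was at 529, 924 and 434 CPM (counts scaled to a library size set by the upper quartile) in controls and at 148, 318 and 262 in mutants. All mutant values were lower, with a log2 fold change of -1.37 and an adjusted p of 0.0881 by the edgeR quasi-likelihood test. Summed levels of 8 dental epithelium markers ran from 85306 to 121022 CPM in controls and from 31585 to 69704 in mutants, lower in every mutant, and those of 6 odontoblast markers from 21504 to 59757 and from 20793 to 26455. No marker of either list was at 0 in any sample. Skeletal muscle markers, which a dissection can carry over, summed to 10.5, 2800 and 30.0 CPM in controls and 6332, 158 and 1025 in mutants, with mutant sample 1 highest. That sample was also the shallowest. The part of these differences in the results for GATOR1 and the sestrins was not tested.

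Promoter sequence was matched by symbol for all 6 genes, in 7 windows because Sesn1 has 2 start sites, each of 300 bases around a RefSeq start, mostly before it, on GRCm38.p6. The following 4 are shown because Nprl3 is the gene with separated groups and the other windows are those that hold a searched motif. They are written 5′ to 3′ on the gene's strand, with a motif match in capitals.
Nprl3, chr11:32267658-32267957, minus strand: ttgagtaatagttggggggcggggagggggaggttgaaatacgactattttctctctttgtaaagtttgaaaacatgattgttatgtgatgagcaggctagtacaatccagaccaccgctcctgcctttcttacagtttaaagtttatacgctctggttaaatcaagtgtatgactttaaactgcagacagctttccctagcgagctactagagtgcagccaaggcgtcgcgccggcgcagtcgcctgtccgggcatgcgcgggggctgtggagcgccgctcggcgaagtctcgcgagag
Nprl2, chr9:107541959-107542258, plus strand: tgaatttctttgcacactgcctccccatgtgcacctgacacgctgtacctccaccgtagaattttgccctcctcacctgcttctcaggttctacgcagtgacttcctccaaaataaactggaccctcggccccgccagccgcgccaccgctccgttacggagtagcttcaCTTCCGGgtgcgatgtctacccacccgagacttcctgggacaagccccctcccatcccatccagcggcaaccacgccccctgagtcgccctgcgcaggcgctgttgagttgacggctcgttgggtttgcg
Sesn1, first start, chr10:41810324-41810623, plus strand: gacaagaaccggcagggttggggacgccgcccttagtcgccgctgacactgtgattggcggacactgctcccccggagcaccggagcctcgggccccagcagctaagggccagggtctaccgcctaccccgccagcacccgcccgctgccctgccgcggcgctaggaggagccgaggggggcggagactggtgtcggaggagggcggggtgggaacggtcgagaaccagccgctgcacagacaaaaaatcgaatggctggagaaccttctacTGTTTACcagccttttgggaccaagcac
Sesn2, chr4:132510407-132510706, minus strand: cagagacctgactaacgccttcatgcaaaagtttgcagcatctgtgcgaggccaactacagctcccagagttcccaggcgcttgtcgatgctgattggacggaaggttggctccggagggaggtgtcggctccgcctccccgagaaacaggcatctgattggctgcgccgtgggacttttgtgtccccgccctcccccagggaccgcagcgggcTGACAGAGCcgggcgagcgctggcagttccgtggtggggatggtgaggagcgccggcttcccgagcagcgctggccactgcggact

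Both strands were searched for 5 motifs. The ETS core (CCGGAAG), bound by a family of factors that includes effectors of FGF signalling, was found on the minus strand of the Nprl2 window at -80 to -74 from the start, and in 8.86% of 32851 mouse promoter windows. The FoxO element (TGTTTAC) stood at 23 to 29 of the first Sesn1 window and in 3.65% of all windows. The NRF2 antioxidant response element (TGACNNNGC) stood at -36 to -28 of the Sesn2 window and in 12.4% of all windows. The E-box (CACGTG, 7.15% of windows) and the ATF4 element (TGATGNAA, 3.97%) were in none of the 7 windows, and the Nprl3 window held none of the 5. These matches describe letters in short windows and say nothing of binding. The GC content was 52.0% in the Nprl3 window and between 60.7 and 71.0% in the other 6.

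Nprl3, which encodes the subunit that pairs with NPRL2 in the GTPase-activating part of GATOR1, lies on chromosome 11 at 32225628 to 32267707 on the minus strand of GRCm38. It was counted 454, 585 and 464 times in controls and 7, 36 and 47 times in mutants. After scaling this was 13.2, 16.1 and 13.4 CPM in controls and 1.53, 3.07 and 4.74 CPM in mutants. The groups were far apart, and the highest mutant value lay below the lowest control value. The log2 fold change was -2.18 ± 0.66 (SE, n = 3 per group; 95% interval -3.69 to -0.66).

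For Nprl3 the edgeR quasi-likelihood test gave a Benjamini-Hochberg adjusted p of 0.101 over 15826 genes. The difference thus missed an adjusted p of 0.05 and met the study's own rule, an unadjusted p under 0.05 with a change of more than 1.5-fold. Nprl3 was called by DESeq2, with an adjusted p of 0.00935 and a log2 fold change of -2.20, and not by limma, with an adjusted p of 0.101. Its log2 fold change stayed between -2.61 and -1.88 in 14 alternative analyses, in each of which the unadjusted p was under 0.05. Only the DESeq2 analysis brought the adjusted p under 0.05.

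The gap exceeded counting error. With exact Poisson intervals, the 3 mutant values could be as high as 3.15, 4.26 and 6.30 CPM, whereas the lowest control bound was 12.04 CPM. The ratio of pooled, scaled counts was 0.241, with an exact 95% interval of 0.192 to 0.298. These bounds cover counting error only and not the spread between mice.

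**Figure D1:**
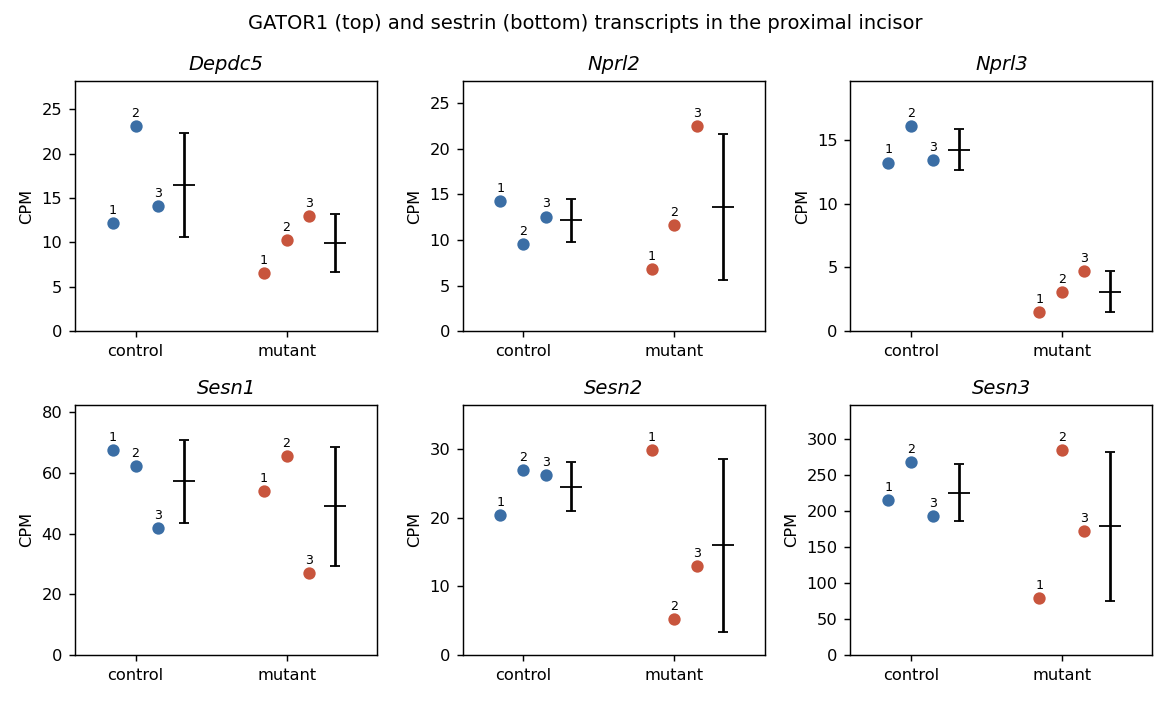
Level of each gene (CPM, upper-quartile scaled, linear axes from 0) in the 3 control and 3 mutant samples. Points are samples with their replicate number, and bars give the mean ± SD. Nprl3 mutant samples lie at 1.53 to 4.74 CPM, below every control sample, and the groups overlap in the other 5 panels.

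Part of Nprl3 is shared with another gene. Of its 7572 annotated exon bases, 1340 also lie in exons of Mpg, a DNA repair glycosylase gene on the opposite strand. The strand setting of the counting is not given in the sources used here, so reads from these bases cannot be assigned with certainty. Control values of Nprl3 were deposited with fractions, 453.587, 584.788 and 464.350, whereas its mutant values were whole. Mpg itself stood at 26.9, 11.2 and 23.9 CPM in controls and at 15.5, 32.8 and 13.7 CPM in mutants. Its groups overlapped, with a log2 fold change of 0.0052 and an edgeR adjusted p of 0.997.

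On the other sides of Nprl3 lie Rhbdf1, encoding a rhomboid-like pseudoprotease, and the alpha-globin cluster, whose enhancers sit in Nprl3 introns. Rhbdf1 was at 21.4, 28.1 and 22.8 CPM in controls and 15.7, 12.9 and 18.2 CPM in mutants. All mutant values were lower, with a log2 fold change of -0.63 and an edgeR adjusted p of 0.382. Hba-x, the nearest globin gene, was not analysed here. Summed levels of 8 erythroid markers were 380 to 835 CPM in controls and 926 to 2560 CPM in mutants, higher in every mutant sample, and 2 to 3 of the 8 were at 0 in each mutant, against 2, 0 and 0 in controls. This sum was carried by Hba-a2 and Hbb-bs, and the alpha-globin gene Hba-a1 went the other way. Hba-a1 was at 203, 174 and 110 CPM in controls and 18.3, 45.6 and 53.7 CPM in mutants, with a log2 fold change of -2.04 and an edgeR adjusted p of 0.0460. Hba-a2 was at 90.1 to 292 CPM in controls and 271 to 746 CPM in mutants, and since the pair is nearly identical, reads may be split between them. The part of these genes and markers in the Nprl3 difference was not tested.

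Nprl2, the partner of Nprl3, lies on chromosome 9 at 107542226 to 107545706 on the plus strand. Its level was 14.3, 9.56 and 12.6 CPM in controls and 6.77, 11.6 and 22.5 CPM in mutants. The mutant samples lay on both sides of the control range, the first below it and the third above it. The log2 fold change was 0.17 ± 0.56 (SE, n = 3 per group; 95% interval -1.12 to 1.46), with an edgeR adjusted p of 0.916. Its direction was not stable, since it was -0.41 without mutant sample 3, -0.094 with scaling by total counts and -0.13 when length and GC content of transcripts were corrected for. Cyb561d2, a cytochrome b561 family gene, begins 32 bases away on the opposite strand and stood at 12.6 to 24.0 CPM in controls and 22.7 to 29.6 CPM in mutants.

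Depdc5 encodes the largest GATOR1 subunit, which holds the Rag GTPases, and lies on chromosome 5 at 32863701 to 32994236 on the plus strand. Its level was 12.2, 23.1 and 14.04 CPM in controls and 6.55, 10.2 and 13.0 CPM in mutants. Mutant samples 1 and 2 were below all controls, while mutant sample 3 lay between the controls. The log2 fold change of -0.72 ± 0.51 (SE, n = 3 per group; 95% interval -1.89 to 0.44) did not pass the test, with an edgeR adjusted p of 0.506. It was negative in 14 of 14 alternatives, from -1.01 to -0.40.

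The subunits were next set against each other within each sample, which needs no scaling between libraries. There were 0.925, 1.68 and 1.07 Nprl3 counts per Nprl2 count in controls and 0.226, 0.265 and 0.211 in mutants. The groups were separated, and the 3 mutant ratios lay close together although their Nprl2 levels differed widely. For Nprl3 against Depdc5 the ratio was 1.08, 0.696 and 0.955 in controls and 0.233, 0.300 and 0.364 in mutants, again without overlap. For Depdc5 against Nprl2 it was 0.855, 2.41 and 1.12 in controls and 0.968, 0.882 and 0.578 in mutants, and the groups overlapped. The Nprl3 to Mpg ratio was 0.492 to 1.44 in controls and 0.0938 to 0.346 in mutants.

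Per kilobase of the longest annotated transcript, Nprl2 was the most abundant GATOR1 message in every sample. In controls it averaged 8.43 ± 1.66 CPM per kb (SD, n = 3), followed by Nprl3 at 4.97 ± 0.557 and Depdc5 at 2.00 ± 0.708, and these 3 ranges did not overlap. In mutants the averages were 9.45 ± 5.58 for Nprl2, 1.09 ± 0.560 for Nprl3 and 1.21 ± 0.394 for Depdc5, and the last pair overlapped. Nprl3 made up 28.8, 37.3 and 31.0% of the summed GATOR1 level per kb in controls and 8.85, 10.3 and 8.78% in mutants. The share of Nprl2 was 44.1 to 61.9% in controls and 77.6 to 82.8% in mutants, and that of Depdc5 overlapped. The order depends on the length used. With the mean length over transcripts, Nprl3 averaged 8.33 CPM per kb in controls and Nprl2 8.43. The mean share of Nprl3 was 37.2% in controls and 11.6% in mutants with coding length, and 20.3% and 5.17% with all exon bases. It was lower in all mutants with each of the 4 lengths tried. This follows from the separated count ratios above, since a length is the same in every sample, and adds nothing to them.

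**Figure D2:**
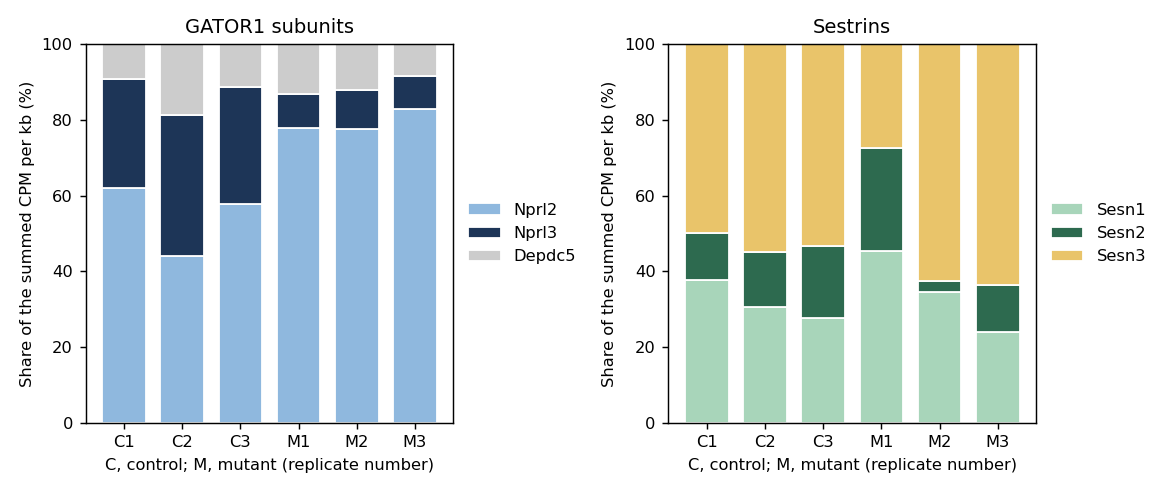
Share of each gene in the summed level of its family (%, from CPM per kb of the longest transcript) in each sample, with controls C1 to C3 and mutants M1 to M3. The Nprl3 band is 28.8 to 37.3% in controls and 8.78 to 10.3% in mutants, and the Sesn3 band is 27.4% in M1 against 62.5 and 63.6% in the other mutants.

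Among the sestrins, Sesn3, which has been described as a FoxO target, had the most counts in every sample. It lies on chromosome 9 at 14275067 to 14333101 on the plus strand. Its level was 215, 268 and 192 CPM in controls and 78.6, 285 and 172 CPM in mutants. Mutant sample 1 was far below and mutant sample 2 above all controls, so the groups overlapped. The log2 fold change was -0.33 ± 0.43 (SE, n = 3 per group; 95% interval -1.32 to 0.65), with an edgeR adjusted p of 0.750. The difference rested on mutant sample 1, without which it was 0.0045.

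Sesn1, a leucine-binding sestrin induced by p53 and FoxO factors, lies on chromosome 10 at 41809935 to 41908424 on the plus strand. Its level was 67.6, 62.3 and 41.7 CPM in controls and 54.1, 65.6 and 27.1 CPM in mutants. Mutant samples 1 and 2 fell within the control range and mutant sample 3 lay below it. The log2 fold change was -0.23 ± 0.36 (SE, n = 3 per group; 95% interval -1.06 to 0.61), with an edgeR adjusted p of 0.809. Without mutant sample 3 it was 0.054. Cep57l1, whose annotation begins 63 bases away on the opposite strand, was at 3.46 to 4.46 CPM in controls and 1.88 to 16.2 CPM in mutants, so that its values overlapped as well. Armc2, on the other side of Sesn1, was at 0.98 to 1.40 CPM in controls and at 0 in mutants. Its log2 fold change was -7.68, with an edgeR adjusted p of 0.0464. A count of 0 in mutant sample 1 allows 0.655 CPM.

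Sesn2, the leucine sensor that ATF4 and NRF2 induce under stress, lies on chromosome 4 at 132492032 to 132510501 on the minus strand. Its level was 20.4, 27.0 and 26.2 CPM in controls and 29.9, 5.21 and 12.9 CPM in mutants. Mutant samples 2 and 3 were below all controls, whereas mutant sample 1, the shallowest, was above them. The log2 fold change was -0.63 ± 0.59 (SE, n = 3 per group; 95% interval -1.99 to 0.73), with an edgeR adjusted p of 0.642. Without mutant sample 1 it was -1.46, with an adjusted p of 0.0894 by edgeR, and without mutant sample 2 it was -0.22. With that length and GC correction it was -0.021.

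The disagreement between the mutant samples exceeded counting error. Exact 95% Poisson intervals for Sesn2 ran from 25.1 to 35.3 CPM in mutant sample 1, from 3.98 to 6.69 CPM in sample 2 and from 10.8 to 15.3 CPM in sample 3. For Sesn3 they ran from 70.7 to 87.1, from 275 to 294 and from 164 to 181 CPM. The 3 intervals were separate for both genes. Sesn2 and Sesn3 took opposite orders in the mutants, and the ratio of Sesn2 to Sesn3 counts was 0.381, 0.0183 and 0.0748, against 0.0948, 0.101 and 0.136 in controls. Mutant sample 1 therefore lay above the control range and samples 2 and 3 below it. The mutant samples also differed from each other over all tested genes. Pearson's r of log2 CPM was 0.725 to 0.791 between mutants, 0.944 to 0.973 between controls and 0.689 to 0.818 between a control and a mutant. Poisson intervals cover counting error only, and the part of this wider spread in the Sesn2 and Sesn3 values was not tested.

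Per kilobase of the longest transcript, the control levels averaged 24.7 ± 4.27 CPM per kb for Sesn3, 15.02 ± 3.59 for Sesn1 and 7.06 ± 1.03 for Sesn2 (SD, n = 3), without overlap between neighbours in this order. Sesn3 gave 49.97, 54.9 and 53.3% of the summed sestrin level per kb in controls and 27.4, 62.5 and 63.6% in mutants. Its control mean was 52.7% with the longest transcript, 68.1% with the mean transcript length, 74.6% with the coding length and 40.7% with all exon bases, so the size of its lead depends on the isoform that these cells use. With all exon bases Sesn3 and Sesn1 averaged 14.8 and 14.4 CPM per kb in controls and their ranges overlapped. Across both families and with the longest transcript, control levels ranked Sesn3, Sesn1, Nprl2, Sesn2, Nprl3 and Depdc5. The neighbours Nprl2 and Sesn2 overlapped, and the other neighbours did not.

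Taking the 6 genes together, 0 passed an adjusted p of 0.05 by edgeR, against 6.79% of the 15826 genes tested (3.72% higher, 3.06% lower). DESeq2 called 1 (Nprl3) and limma 0, beside 10.2% and 8.47% of all genes they tested. By the study's rule 1 of 6 was lower and 0 higher, where 19.8% of all genes met it, 8.92% lower and 10.9% higher. All mutants were below all controls for 1 of 6, and this was so for 16.3% of all genes, while 30.4% did not overlap in either direction. The median log2 fold change of the 6 was -0.48 and that of all genes -0.040. Negative values were found for 5 of the 6 and for 8204 of the 15826 genes tested. A count of 1 among 6 genes is near what these shares give and so does not set these genes apart from others. Whether the 6 genes shifted together was not tested.

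**Figure D3:**
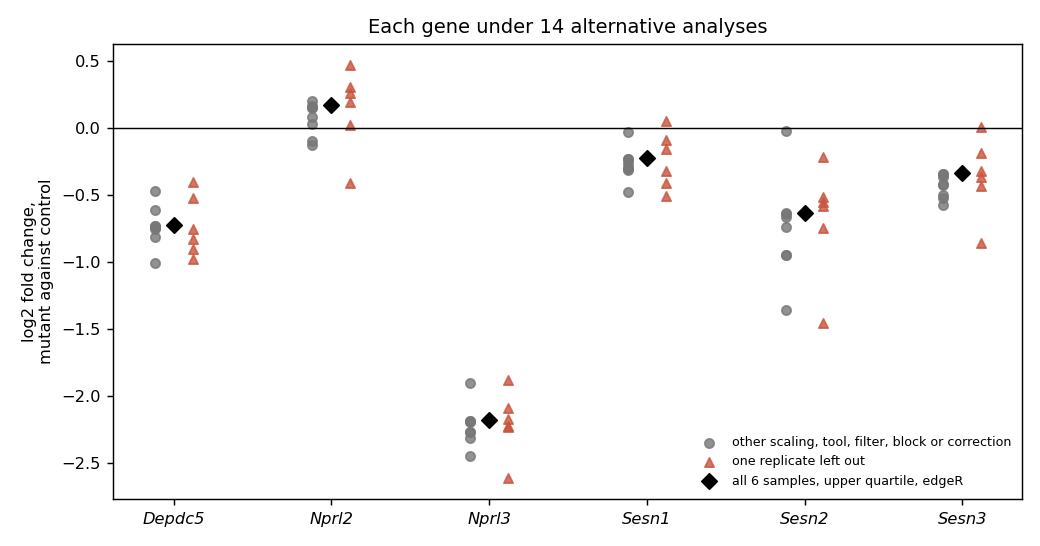
Log2 fold change (mutant against control) of each gene under the reported analysis (diamonds), under 8 other scalings, tools, filters, block or correction (circles) and with each of 6 samples left out (triangles). Nprl3 stays between -2.61 and -1.88, whereas points for Nprl2, Sesn1 and Sesn3 lie on both sides of 0.

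The neighbours of GATOR1 and the sestrins in the pathway were read from the same fit. Of 36 listed genes of the amino acid branch, 35 were in the table and 34 were tested. By edgeR 1 fell (3.06% of all genes) and 0 rose (3.72%) at an adjusted p of 0.05. By the study's rule 4 were higher and 3 lower, as were 10.9% and 8.92% of all genes. All mutants were above the controls for 6 (14.1% of all genes) and below them for 6 (16.3%). The median log2 fold change was -0.13.

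The gene that fell was BC048403, listed for Kics2, a subunit of the KICSTOR scaffold that tethers GATOR1 to the lysosome. It was counted 141, 180 and 164 times in controls and 0, 2 and 0 times in mutants. Nearly all of its counts were thus in control samples. The ratio of pooled, scaled counts was 0.0166, with an exact 95% interval of 0.00200 to 0.0602 for counting error only, and the edgeR adjusted p was 0.0466. The call was lost when any 1 of the 6 samples was left out, with edgeR adjusted p between 0.0534 and 0.221, and with DESeq2 and limma it was kept. The other KICSTOR genes did not pass. Kptn was at 23.6, 13.6 and 19.2 CPM in controls and 1.09, 12.6 and 8.06 in mutants, lower in all mutants, with a log2 fold change of -1.36 and an edgeR adjusted p of 0.387. All 4 KICSTOR genes had negative values.

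None of the 5 GATOR2 genes, whose complex the sestrins bind, passed an adjusted p of 0.05 by edgeR, DESeq2 or limma. The study's rule was met by 0 of them and by 19.8% of all genes. Seh1l, shared with the nuclear pore, was at 26.4 to 37.1 CPM in controls and 38.6 to 56.7 in mutants, with a log2 fold change of 0.45. Wdr24 had -0.55, Wdr59 -0.50 and Sec13, also part of the COPII coat, 0.00027.

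Of 7 other amino acid sensors, 6 were tested and 0 passed an adjusted p of 0.05 by edgeR. By the study's rule 2 were higher (10.9% of all genes) and 1 lower (8.92%). DESeq2 called 2 and limma 1, beside 10.2% and 8.47% of all genes they tested. Sar1b, a COPII GTPase that also senses leucine, was at 56.4, 29.3 and 47.4 CPM in controls and 145, 81.8 and 96.5 CPM in mutants. All mutant values were higher, with a log2 fold change of 1.28 and an edgeR adjusted p of 0.0586. Bmt2, listed for the methionine sensor gene Samtor, had 1.09 with an edgeR adjusted p of 0.142. Lars, the cytosolic leucyl-tRNA synthetase, was at 50.1, 53.4 and 53.5 CPM in controls and 24.4, 23.2 and 32.4 CPM in mutants, with a log2 fold change of -0.97 and an edgeR adjusted p of 0.0679. Castor1, the arginine sensor, was at 14.9 to 19.6 CPM in controls and at 0, 9.82 and 7.15 in mutants, and its edgeR adjusted p was 0.513.

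Of 6 ubiquitin enzymes that act on GATOR1 or the sestrins, 5 were tested and 0 were called by edgeR, DESeq2 or limma. By the study's rule 1 was higher (10.9% of all genes) and 1 lower (8.92%). Cul3, the cullin that with KLHL22 directs DEPDC5 to degradation, was at 40.6, 51.5 and 44.8 CPM in controls and 104, 59.8 and 81.0 CPM in mutants. Its groups did not overlap, with a log2 fold change of 0.84 and an edgeR adjusted p of 0.116. Its adaptor Klhl22 had -0.64, with overlap and an adjusted p of 0.512 by edgeR. Rnf167, a ligase for SESN2, was at 75.4 to 91.2 CPM in controls and 49.6 to 56.7 CPM in mutants, with a log2 fold change of -0.66 and an edgeR adjusted p of 0.115. The deubiquitinase gene Stambpl1 was at 25.97, 0 and 2.02 CPM in mutants and 2.72 to 3.85 in controls.

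Downstream, all 14 genes of the Rag GTPases, Ragulator and mTORC1 were tested. None passed an adjusted p of 0.05 by edgeR, DESeq2 or limma. By the study's rule 0 were lower (8.92% of all genes) and 1 was higher (10.9%). This was Lamtor5, a Ragulator subunit, at 50.7, 24.2 and 37.7 CPM in controls and 60.7, 88.3 and 70.6 CPM in mutants, with a log2 fold change of 0.96 and an edgeR adjusted p of 0.129. Lamtor3 had 0.76. Among the mTORC1 subunits Mlst8 had -0.96, lower in all mutants, and Rptor -0.62, and neither passed.

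**Figure D4:**
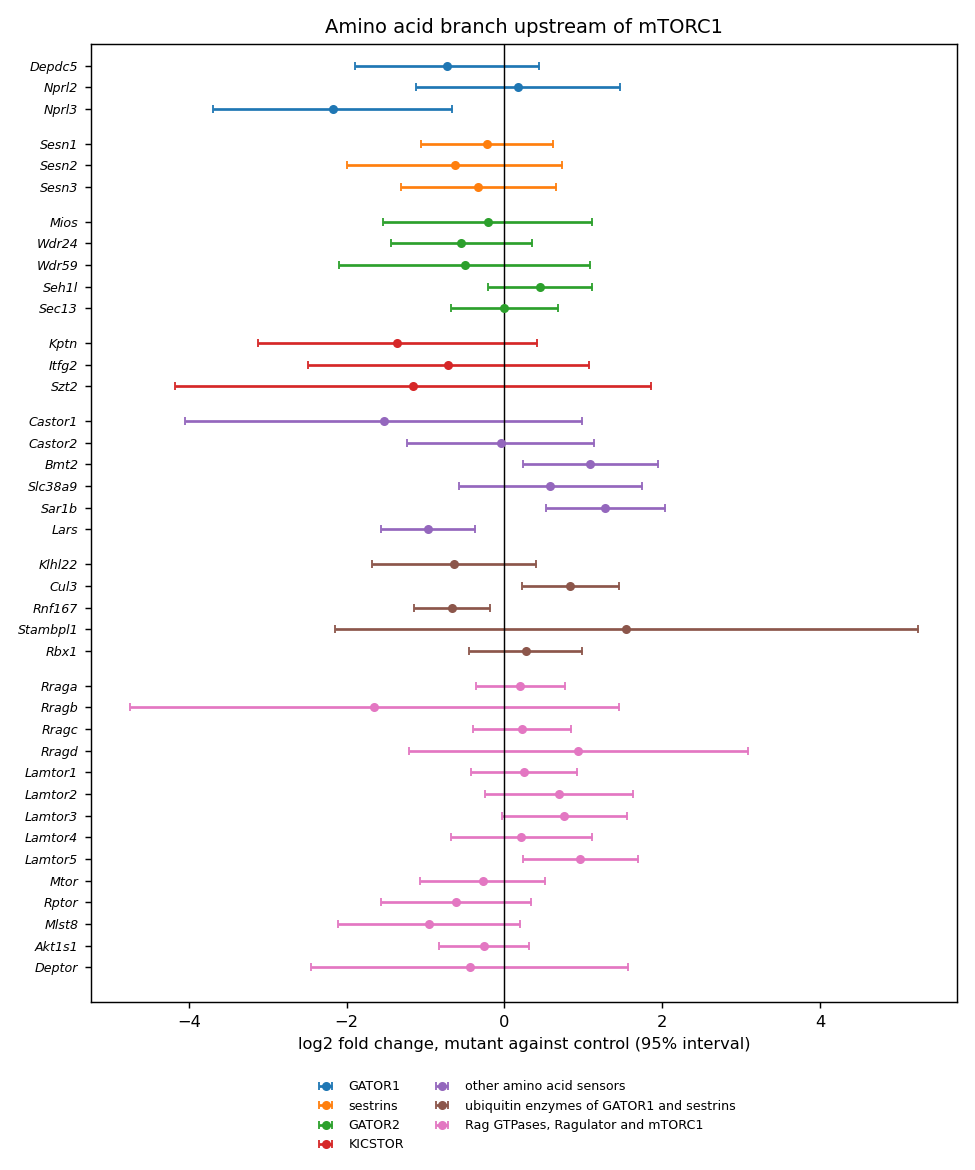
Log2 fold change (mutant against control, points) with 95% intervals (bars) for the 6 genes and 33 other tested genes of the amino acid branch, coloured by complex. BC048403, with 2 counts in all mutants, is left out, and in GATOR1 and the sestrins only the interval of Nprl3, -3.69 to -0.66, lies on one side of 0.

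Since sestrins answer to p53, ATF4, FoxO factors and NRF2, 61 genes tied to these factors were listed, of which 59 were tested. By edgeR 0 passed an adjusted p of 0.05, as 6.79% of all genes did. By the study's rule 11 were lower (8.92% of all genes) and 0 higher (10.9%). DESeq2 called 6 and limma 2, those being lower in mutants, where these tools called 10.2% and 8.47% of all genes, 3.18% and 3.24% as lower.

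Of the 19 ATF4 targets, 16 had negative values, as had 8204 of all 15826 genes tested. The median log2 fold change was -0.42, beside -0.040 for all genes. The study's rule was met by 5, all lower (8.92% of all genes), and 7 had all mutants below all controls (16.3% of all genes). Slc7a11, the cystine carrier, was at 28.1, 20.7 and 24.6 CPM in controls and 3.49, 4.95 and 9.57 CPM in mutants. Its groups were clearly separated, with a log2 fold change of -2.01 and an edgeR adjusted p of 0.0555. Aldh18a1, for proline synthesis, had -1.17 with an edgeR adjusted p of 0.0596, whereas Psat1, for serine synthesis, had 0.70. Without mutant sample 1, 17 of 19 were negative, and 7 were lower and 1 higher by the study's rule, which then held for more genes of the whole table, 14.5% lower and 12.2% higher.

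In the p53 list 11 of 14 were positive, as were 7622 of all 15826 genes tested, and the median log2 fold change was 0.42. Among its positive genes the smallest unadjusted p by edgeR was 0.0520, for Trp53inp1. The best-known member of the list was lower in mutants. Cdkn1a, the cell cycle inhibitor p21, was at 271, 246 and 376 CPM in controls and 96.9, 125 and 167 CPM in mutants. All mutant values were lower, with a log2 fold change of -1.20 and an adjusted p of 0.0502 by edgeR. Perp, a desmosomal gene of epithelia, was at 418 to 910 CPM in controls and 952 to 1214 in mutants, with a log2 fold change of 0.67, and Trp53inp1 had 0.73. By the study's rule 1 was lower (8.92% of all genes) and 0 higher (10.9%). Without mutant sample 2 the median was 0.16, with 8 of 15 positive.

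In the FoxO list 2 of 16 were lower by the study's rule (8.92% of all genes), with a median of -0.10. Txnip, an inhibitor of thioredoxin, had a log2 fold change of -0.75 and Irs2, an insulin receptor adaptor, -1.06. Without mutant sample 1 neither these nor any other of the 16 met the rule. In the NRF2 list 4 of 11 met it and were lower (8.92% of all genes), among them Slc7a11 again. Pgd, of the pentose phosphate pathway, was at 77.6 to 86.8 CPM in controls and 44.2 to 47.8 CPM in mutants, with a log2 fold change of -0.80 and an edgeR adjusted p of 0.0561. Gclm had 0.54, higher in all mutants.

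Finally, the genes most like Nprl3, Sesn2, Nprl2 and Depdc5 across the 6 samples were named, by Pearson's r of log2 CPM among 9706 or 9707 genes with a mean of at least 10 CPM. For Nprl3 they were Twsg1, an extracellular modulator of BMP, at r = 0.995 and Gga1, a trans-Golgi adaptor, at 0.995. For Sesn2 they were Top3b and Sec24c (0.998 and 0.997). For Nprl2 they were Hnrnph3 and Eva1a (0.997 for each), and for Depdc5 Ctnna1 and Gramd1b (0.994 and 0.993). These are descriptions over 6 libraries in which depth and genotype differ together, and values this high are reached by some genes when so many are searched. No member was among the 2 genes most like another member.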

How the data were processed

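Single reads of RNA from 3 control and 3 mutant proximal incisors were processed by the authors in Partek Flow on mm10, and the submitters' processing notes name TopHat2 2.0.8. The authors deposited estimated counts per gene, not normalized. The annotation, counting model and strand setting are not given in the sources used here. The authors' table of their own comparison (p-values, ratios, fold changes, group means) was not used.

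Samples were grouped by the labels. Estimated counts were rounded and tested with edgeR 4.0.16 in R 4.3.3 (upper-quartile scaling, filterByExpr with a minimum count of 10 and total of 15, genotype as the only term, two-sided quasi-likelihood test, Benjamini-Hochberg adjustment over all 15826 genes). Standard errors were derived from the F statistic of each gene. DESeq2 1.42.0, limma 3.58.1, other scalings and filters, a replicate block, a correction for length and GC content of transcripts, and leaving out each sample were alternatives. Total counts of 5276557 to 32712448 set the precision, and a count of 0 allows 3 counts, which is 0.655 CPM in mutant sample 1. Positions and lengths came from GENCODE M21 on GRCm38, and promoters from RefSeq.

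The members and lists were chosen with earlier results of these data known. Named genes were the 6 members, Fgfr1, up to 2 genes per list and direction with the smallest p, the 2 genes most like each member (log2 CPM, prior count 2; for Sesn1 and Sesn3 not reported here), and overlapping or nearest genes. Of the last, the values of some are not printed, among them Atpif1 next to Sesn2 and Fam76b and Endod1 next to Sesn3. By the study's rule Atpif1 and Fam76b were higher (10.9% of all genes) and Endod1 lower (8.92%) in mutants. The length of all exon bases and the alternatives for the regulator lists were chosen after seeing the data.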

Additional observations from a re-analysis of the deposited data

How the results depend on the processing

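Over 14 alternatives, Depdc5, Nprl3 and Sesn2 kept a negative log2 fold change. Nprl3 passed an adjusted p of 0.05 with DESeq2 (-2.20). Nprl2 turned negative with total counts (-0.094), after the length and GC correction (-0.13) and without mutant sample 3 (range over left-out samples -0.41 to 0.47). Sesn3 turned positive without mutant sample 1 (range -0.85 to 0.0045) and Sesn1 without mutant sample 3 (range -0.51 to 0.054). The cause was not tested. Scaling by total counts moved the median of all genes from -0.040 to -0.30. Relative to these medians, Nprl2 was positive under both.

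Called pathway genes numbered 1. They were 3 with total counts or DESeq2, 2 with limma, and 0 without a filter, at a mean of at least 50 counts, after the length and GC correction, and without any 1 sample (0 to 0). Called regulator genes numbered 0, and 4 with TMM, 5 with total counts, 6 with DESeq2 and 2 with limma. Over all genes the 1074 calls (589 higher, 485 lower) became 229 without a filter (210 and 19), 370 at a mean of at least 50 counts (322 and 48), 139 after the correction (111 and 28) and 76 to 606 with 1 sample left out. They were 1137 with total counts (466 and 671), 1609 with DESeq2 (1109 and 500) and 1340 with limma (827 and 513). Sesn3's control share of 52.7% was 68.1% (mean length), 74.6% (coding length) and 40.7% (all exon bases).

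Deviations of samples sharing a replicate number correlated at 0.0472, 0.00937 and 0.0548. Those of other control and mutant samples correlated at -0.0593 to 0.00808. The paper mentions pairs of samples without saying what was paired. Correlations this small, from so few samples per group, cannot decide whether the samples were paired. With the replicate number as a block, 508 genes (432 higher, 76 lower), 1 regulator gene and none of the 6 members were called. The pathway call moved from BC048403 (edgeR adjusted p 0.170) to Sar1b (1.29, edgeR adjusted p 0.0293), and Nprl3 had a log2 fold change of -2.31 and an edgeR adjusted p of 0.213.

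Each sample left out leaves 2 against 3, and the depth of the mutants limits what can be seen of genes under about 1 CPM there.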
